A study of Mus musculus with 20 samples.

Results

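The genes described here are 10 markers of dendritic cell subsets, measured on arrays in UVB-induced mouse melanomas: Flt3, Zbtb46, Xcr1, Batf3, Irf8, Cd209a, Ccr7, Fscn1, Siglech and Cd207. Each was taken as the row of the array table that carries its symbol, and all 10 of 10 listed genes were found among 19504 named genes, each on 1 row. The arrays covered 2 genotypes. B;p38α mice were Tyr::CreERT2;BrafCA/CA;p38αlox/lox and B mice were Tyr::CreERT2;BrafCA/CA, so both carried the inducible mutant Braf allele and only B;p38α also carried the floxed p38α allele. Cre was driven by Tyr, a melanocyte promoter, so the deletion of p38α was directed at melanocytes and not at the leukocytes in which most of these 10 genes are known to act. Pups of both genotypes received 4-hydroxytamoxifen on the skin (5 mg/ml) on postnatal days 2.5 and 3.5 and a single UVB dose of 6.24 kJ/m2 on day 3.5, and tumors were taken at endpoint. Neither the age at endpoint nor the sex of the mice is stated in the labels. CD45+ populations were taken from dissociated tumors by magnetic positive selection (3 arrays of B;p38α and 3 of B), CD45- populations were the cells left by that selection (3 and 3), and complete tumors were not dissociated (3 of B;p38α and 5 of B). The labels call the arrays biological replicates without saying that each came from a separate animal, so a p-value here reflects how far these arrays spread, which may be technical. All levels below are deposited log2 values, and all differences are differences of log2 levels.

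Dendritic cells take up antigen in tissues and present it to T cells. Conventional dendritic cells and plasmacytoid dendritic cells arise from bone marrow progenitors under Flt3 ligand, whereas Langerhans cells of the epidermis maintain themselves in the skin. Type 1 conventional dendritic cells cross-present tumor antigen to CD8 T cells, type 2 conventional and monocyte-derived dendritic cells mainly prime CD4 T cells, and mature dendritic cells of either kind migrate to lymph nodes. Among the 10 genes, Flt3 and Zbtb46 mark the conventional lineage, Xcr1, Batf3 and Irf8 type 1 cells, Cd209a type 2 and monocyte-derived cells, Ccr7 and Fscn1 mature migratory cells, Siglech plasmacytoid cells and Cd207 Langerhans cells.

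Array medians of all rows lay between 6.78 and 6.98. Ptprc, which encodes CD45, was at 11.20 to 11.95 in B;p38α and 11.74 to 12.14 in B CD45+ populations, against 6.80 to 8.63 in B;p38α and 9.66 to 9.95 in B CD45- populations. The selection was therefore visible in the arrays, but CD45- populations kept a leukocyte signal, above all those of B tumors. CD45+ populations likewise kept a stromal signal. A list of fibroblast genes averaged 11.30 in B;p38α and 11.12 in B CD45+ populations, against 11.92 and 11.85 in CD45- populations. A list of endothelial genes averaged 8.75 and 9.57 in CD45+ populations, above 7.77 and 8.06 in CD45- populations. The part of this signal in the levels of the 10 genes was not tested. Among CD45- arrays, B replicate 1 was unlike the others: the interquartile range of its levels was 2.95, and that of every other array was 3.41 to 3.89. Its median correlation with the arrays of its group was 0.911. The pair of arrays closest to each other within a group was B;p38α CD45+ replicates 1 and 2, with a correlation of 0.991 and a median absolute difference of 0.168 over all genes, against at least 0.216 in the other pairs. The targeted gene Mapk14 was at 9.57 to 9.95 in B;p38α and 9.89 to 10.16 in B complete tumors, but the labels do not say whether its probes lie in the deleted part, and this is no check of the genotype labels.

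CD45+ populations were first set against CD45- populations over the 4 sorted groups, which asks which of the 10 genes followed the leukocytes. Cd209a, Xcr1, Flt3, Irf8, Siglech and Batf3 were higher in CD45+ populations, by 6.92-fold, 5.59-fold, 4.92-fold, 3.38-fold, 2.65-fold and 1.45-fold. Fscn1, Zbtb46, Ccr7 and Cd207 did not pass the test. The 6 of 10 genes higher at an adjusted p under 0.05 in limma stand beside 7.79% of all 19504 genes called higher, and 0 of 10 were called lower beside 4.37%. These same 6 genes were also those whose 6 CD45+ arrays all lay above the 6 CD45- arrays, beside 5.78% of all genes. Within B;p38α and within B, 4 of 10 genes were higher, Flt3, Xcr1, Irf8 and Cd209a, beside 4.34% and 3.9% of all genes. Leaving out 1 array took the count within B down to 2, and the number of all genes called, in either direction, ranged from 271 to 1077, against 908 with every array. The Cd209a call in B was lost in 5 of 12 such fits, without any 1 of the 3 B CD45+ arrays or without B CD45- replicate 2 or 3 (adjusted p up to 0.0771). The Xcr1 call in B was lost in 4 of 12, without replicate 1 or 3 of either B population (adjusted p up to 0.0827). The median difference of the 10 genes was 0.97, beside -0.08 over all genes. Since these are bulk samples, fewer cells of a type and less RNA per cell cannot be told apart.

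Of the genes of the conventional lineage, Flt3 encodes the receptor tyrosine kinase through which Flt3 ligand drives dendritic cell development. Its level was 7.37, 7.51 and 7.60 in B;p38α CD45+ and 7.52, 6.89 and 7.17 in B CD45+ populations. In CD45- populations it stood at 4.70, 5.23 and 4.57 in B;p38α and 5.40, 4.88 and 5.47 in B. Every CD45+ array was above every CD45- array. The difference was 2.30 (SE 0.17, 95% interval 1.93 to 2.67, adjusted p = 2.0e-05), and it passed within B;p38α (2.66, adjusted p = 0.000183) and within B (1.94, adjusted p = 0.00235). Zbtb46 encodes a zinc finger repressor found in conventional dendritic cells and also in endothelium. It ranged from 5.88 to 6.21 in B;p38α and from 5.80 to 6.29 in B CD45+ populations, against 5.50 to 5.98 in B;p38α and 5.15 to 5.67 in B CD45- populations. These ranges overlapped, and the difference of 0.45 (95% interval 0.12 to 0.79) did not pass (adjusted p = 0.0855), though it did with array weights (adjusted p = 0.0326).

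Among the genes of type 1 cells, Xcr1 encodes the receptor for the chemokine Xcl1. It was at 6.95, 6.69 and 8.32 in B;p38α and 9.05, 7.56 and 7.85 in B CD45+ populations, against 4.08, 4.62 and 4.78 in B;p38α and 5.54, 6.44 and 6.05 in B CD45- populations. The CD45+ and CD45- arrays did not overlap, and the lowest Xcr1 levels of all 20 arrays were the 3 of B;p38α CD45- populations. The difference was 2.48 (SE 0.33, 95% interval 1.75 to 3.22, adjusted p = 0.000529), with 2.82 in B;p38α (adjusted p = 0.00396) and 2.14 in B (adjusted p = 0.0267). Irf8 encodes a transcription factor needed for type 1 cells and also active in monocytes, plasmacytoid cells and B cells. Its CD45+ levels were 8.04, 8.16 and 9.01 in B;p38α and 8.94, 8.74 and 8.78 in B, against CD45- levels of 6.84, 6.56 and 6.95 in B;p38α and 6.80, 7.14 and 6.80 in B. All 6 CD45+ arrays lay above all 6 CD45- arrays, with a difference of 1.76 (SE 0.17, 95% interval 1.37 to 2.14, adjusted p = 7.7e-05). Batf3 encodes the partner of Irf8 in type 1 cells. It reached 6.61, 6.75 and 6.96 in B;p38α and 6.97, 6.76 and 6.68 in B CD45+ populations, against 5.89, 6.33 and 6.48 in B;p38α and 6.04, 6.18 and 6.60 in B CD45- populations. The lowest CD45+ array was 6.61 and the highest CD45- array 6.59, so the groups were separated by a narrow gap. The difference of 0.54 (SE 0.15, 95% interval 0.21 to 0.87) passed at an adjusted p of 0.0396, but the call was lost in 10 of 12 fits that left out 1 array, at adjusted p-values up to 0.0983.

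Cd209a encodes a C-type lectin of the DC-SIGN family that marks monocyte-derived and type 2 dendritic cells. It was at 9.92, 9.92 and 11.09 in B;p38α and 10.51, 10.42 and 10.44 in B CD45+ populations. In CD45- populations it was at 5.79, 8.07 and 7.33 in B;p38α and 8.11, 8.17 and 8.08 in B. The 3 B arrays of each compartment lay within 0.1 of each other, while B;p38α CD45- arrays spread over more than 2 log2 units. CD45+ populations were higher by 2.79 (SE 0.34, 95% interval 2.04 to 3.54, adjusted p = 0.000274), with 3.25 in B;p38α (adjusted p = 0.00194) and 2.34 in B (adjusted p = 0.0201). Siglech encodes a sialic acid-binding lectin of mouse plasmacytoid dendritic cells. It stood at 7.07, 7.09 and 8.35 in B;p38α and 6.87, 8.27 and 7.92 in B CD45+ populations, against 5.21, 6.47 and 6.48 in B;p38α and 6.33, 6.02 and 6.62 in B CD45- populations. The CD45+ arrays were spread over 6.87 to 8.35 and stayed above all CD45- arrays. The difference over both genotypes was 1.41 (SE 0.33, 95% interval 0.68 to 2.13, adjusted p = 0.0169), and the values within B;p38α (1.45, adjusted p = 0.131) and within B (1.36, adjusted p = 0.143) did not pass on their own. The B;p38α value passed with all 6 groups in a single fit (adjusted p = 0.0417) and the B value with array weights (1.59, adjusted p = 0.0197).

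Ccr7 and Fscn1, the genes of mature migratory cells, did not pass this test. Ccr7 encodes the chemokine receptor that guides dendritic cells and T cells to lymph nodes. It ranged from 7.46 to 7.63 in B;p38α and from 7.66 to 7.997 in B CD45+ populations, against 6.86 to 7.14 in B;p38α and 7.14 to 8.08 in B CD45- populations. The highest Ccr7 level of all 20 arrays was B CD45- replicate 1, the array of narrow range. The difference of 0.44 (95% interval 0.07 to 0.81) did not pass (adjusted p = 0.129), and without that array it was 0.59 and passed (adjusted p = 0.00663). Fscn1 encodes fascin, an actin-bundling protein of mature dendritic cells that many tumor and mesenchymal cells also make. It was at 10.73, 10.74 and 10.08 in B;p38α and 10.20, 9.69 and 9.71 in B CD45+ populations, against 11.10, 10.98 and 11.11 in B;p38α and 10.25, 10.73 and 10.29 in B CD45- populations. Within each genotype every CD45- array was above every CD45+ array, though the difference of -0.55 (SE 0.16, 95% interval -0.91 to -0.19) fell short of the threshold (adjusted p = 0.0516). It passed without B CD45+ replicate 1 (adjusted p = 0.0336) and without B CD45- replicate 1 (adjusted p = 0.0387). With array weights both genes passed, Ccr7 at an adjusted p of 0.00541 and Fscn1 at 0.00839. Cd207 encodes langerin, the lectin of Langerhans cell granules. It lay between 4.99 and 5.70 in B;p38α and 5.04 and 5.53 in B CD45+ populations, against 4.77 to 5.74 in B;p38α and 4.98 to 5.73 in B CD45- populations, with a difference of -0.06 (95% interval -0.53 to 0.42, adjusted p = 0.923). Its mean over all arrays fell below the 30th percentile of all genes (5.33), unlike those of the other 9 genes.

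**Figure D1:**
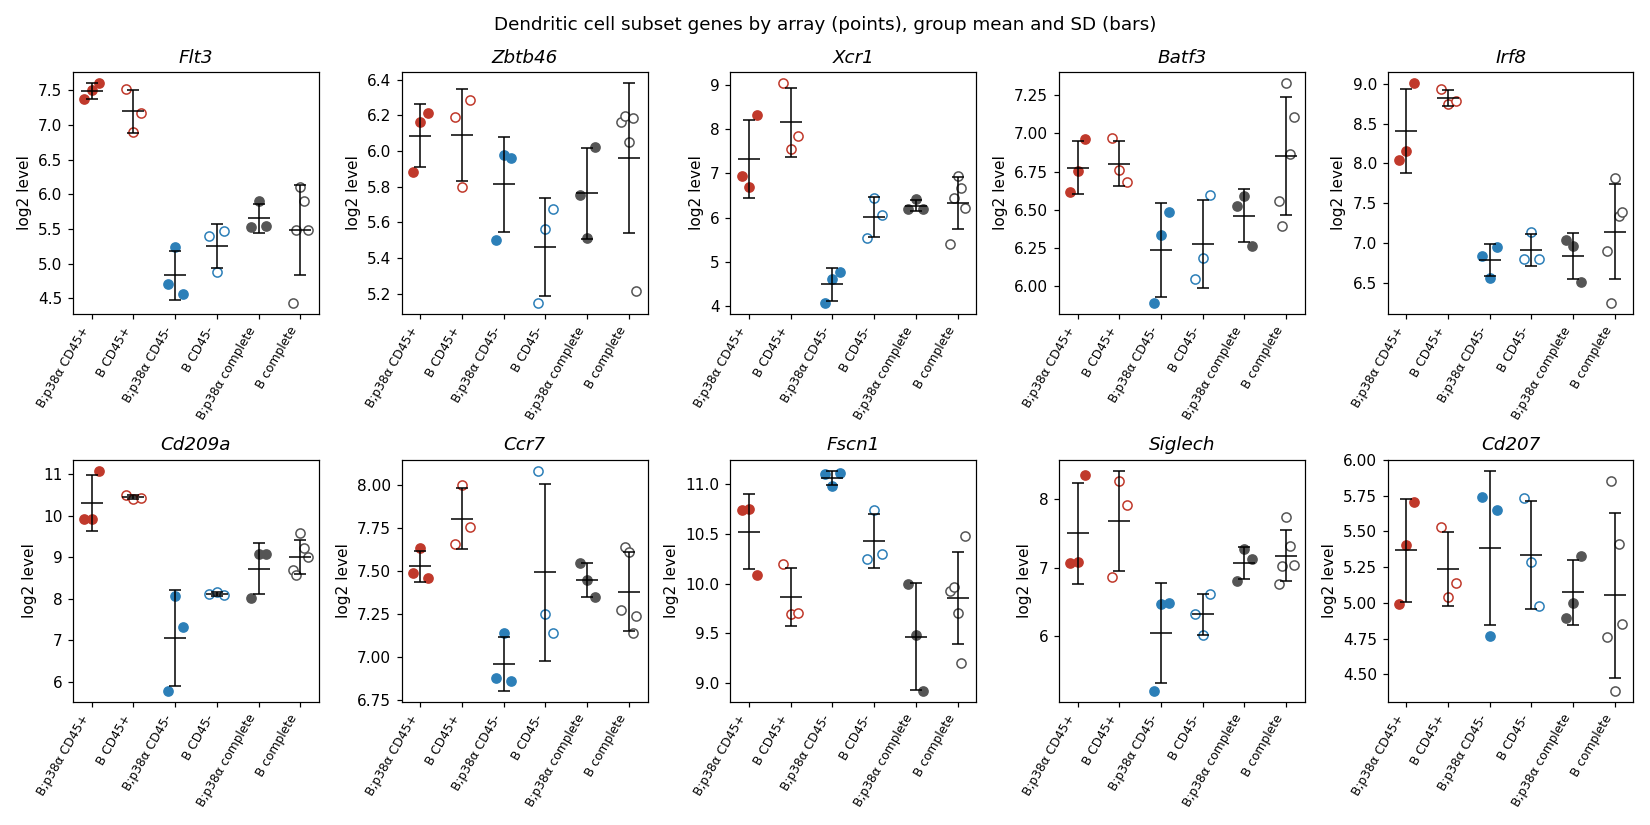
Log2 level (vertical axes) of each of the 10 genes on each of the 20 arrays, in 6 groups of genotype and compartment. Points are arrays, filled for B;p38α and open for B, in red for CD45+, blue for CD45- and grey for complete tumors; horizontal bars are group means with SD. Means of Flt3, Xcr1, Irf8, Cd209a, Siglech, Ccr7 and Zbtb46 are highest in both CD45+ groups, by only 0.035 for Ccr7 and 0.125 for Zbtb46. Fscn1 is highest in B;p38α CD45- populations at 10.98 to 11.11, and Cd207 overlaps between all groups.

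The sequences around the start sites are shown for the genes higher in CD45+ populations that held a motif of hematopoietic transcription factors, and for Cd207, which did not differ. Promoters of 9 of the 10 genes, all but Ccr7 (10 start sites, since Irf8 has 2) were taken from RefSeq on GRCm38.p6, from 250 bases before to 50 bases after the start. They were searched on both strands for a composite element bound by an ETS factor with an IRF (GGAA and GAAA with 2 bases of any kind between them), an IRF repeat (the same with GAAA in both places), TGANTCA (the AP-1 element, bound by Batf3 with a Jun protein) and GAGGAA (the core bound by PU.1). Each line runs 5′ to 3′ along the gene from position -160 to position 20, where position 1 is the start, and capitals mark the match. The windows lie at chr8:3748965-3749144 (minus strand) for Cd209a, chr7:55768024-55768203 (plus strand) for Siglech, chr1:191098254-191098433 (plus strand) for Batf3 and chr6:83677838-83678017 (minus strand) for Cd207.
Cd209a: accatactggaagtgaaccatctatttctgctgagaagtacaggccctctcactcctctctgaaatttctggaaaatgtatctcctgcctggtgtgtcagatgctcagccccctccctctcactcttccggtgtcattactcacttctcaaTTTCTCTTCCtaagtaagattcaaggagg
Siglech: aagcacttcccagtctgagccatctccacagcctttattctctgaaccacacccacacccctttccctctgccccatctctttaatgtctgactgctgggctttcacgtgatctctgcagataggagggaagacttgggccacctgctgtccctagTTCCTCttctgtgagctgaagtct
Batf3: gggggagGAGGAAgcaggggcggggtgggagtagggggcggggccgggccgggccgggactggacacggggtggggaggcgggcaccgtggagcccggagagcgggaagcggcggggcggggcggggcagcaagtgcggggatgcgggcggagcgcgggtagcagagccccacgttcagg
Cd207: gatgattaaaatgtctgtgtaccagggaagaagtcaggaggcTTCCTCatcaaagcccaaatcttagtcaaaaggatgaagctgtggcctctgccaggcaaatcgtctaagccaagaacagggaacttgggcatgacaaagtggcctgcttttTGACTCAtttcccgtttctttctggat
Cd209a, the gene with the largest difference between the sorted populations, held the composite element on the reverse strand at positions -9 to 1, a motif found in 2.72% of 32851 promoters. Siglech (positions -4 to 2, reverse strand), Batf3 (positions -153 to -148) and Cd207 (positions -118 to -113, reverse strand) held GAGGAA, which 28.3% of all promoters held. TGANTCA was found in Cd207 (positions -7 to -1) and Zbtb46 (positions -61 to -55), against 7.81% of all promoters. The IRF repeat was found in 0 of the 9 genes and in 3.44% of all promoters, and no motif of the 4 was found in the windows of Flt3, Xcr1, Irf8 and Fscn1. GAGGAA thus occurred in genes called higher in CD45+ populations and in Cd207, which was not. The composite element occurred only in a gene called higher, and TGANTCA only in genes that were not. With so few promoters searched, no conclusion is drawn on whether the motifs go with the differences.

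Some other genes of the same cell types, though not all, were also higher in CD45+ populations. Of 12 measured genes of type 1 cells, 7 were higher and 0 lower (median difference 1.15), led by the integrin gene Itgae (2.52), the receptor gene for dead-cell actin Clec9a (2.50) and Wdfy4 (2.38), needed for cross-presentation. Of 10 genes of type 2 and monocyte-derived cells, 7 were higher (median 1.30), led by the lectin genes Mgl2 (3.29) and Clec10a (2.45) and the transcription factor gene Irf4 (1.87). Of 14 genes of mature migratory cells, 9 were higher (median 0.94), led by the costimulatory gene Cd86 (3.21), the maturation marker Cd83 (2.91) and the chemokine gene Ccl22 (2.64). Of 13 genes of plasmacytoid cells, 6 were higher (median 0.71), led by the nucleic acid sensors Tlr7 (3.28) and Tlr9 (2.69) and by Irf7 (1.80). Others of that list did not pass in either genotype and differed in sign. These were Tcf4 (-0.21 in B and 0.04 in B;p38α), Cox6a2 (-0.14 and 0.19) and Atp1b1 (-0.44 and 0.23). Of 9 genes of Langerhans cells, 4 were higher (median 0.48), led by Csf1r (2.77), Ltc4s (2.15) and Cdh1 (2.11), which macrophages or epithelia also use, while Epcam differed by 0.47 and did not pass (adjusted p = 0.465). Of 16 growth factors, receptors and recruiting ligands, 10 were higher (median over the list 1.03), led by Spi1 (3.01), which encodes PU.1, the chemokine gene Ccl3 (2.86) and Ikzf1 (2.67), and 1 was lower, the macrophage growth factor gene Csf1 (-0.75). Xcl1, the ligand of Xcr1, was higher by 1.03 (adjusted p = 0.0164), and Flt3l, the ligand of Flt3, differed by 0.46 without passing (adjusted p = 0.0882). Among genes of other cells, 8 of 10 T cell, 4 of 6 B cell, 6 of 8 NK cell, 6 of 9 neutrophil and 5 of 8 endothelial genes were higher in CD45+ populations, 0 of 9 keratinocyte genes passed, 2 of 7 fibroblast genes were lower, and of 8 melanocyte genes 1 was higher and 1 lower. The general leukocyte genes moved further than any of these lists, with 12 of 12 higher and a median of 2.77, as did the macrophage genes (11 of 11, median 2.77), and their part in the results for the 10 genes was not tested.

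Complete tumors gave a further level for each gene, with the caution that the sorted populations were dissociated and complete tumors were not. Flt3, Irf8, Cd209a and Xcr1 were higher in CD45+ populations than in complete tumors, by 3.42-fold, 3.07-fold, 2.84-fold and 2.70-fold. These 4 of 10 stand beside 12.9% of all genes called higher. Flt3 was at 5.52, 5.90 and 5.54 in B;p38α and 4.44, 5.48, 6.10, 5.91 and 5.49 in B complete tumors, all below the lowest CD45+ array, for a CD45+ minus complete difference of 1.77 (SE 0.22, adjusted p = 1.6e-05). Irf8 had 7.04, 6.97 and 6.51 in B;p38α and 6.91, 6.25, 7.82, 7.34 and 7.39 in B complete tumors, again all below the CD45+ arrays, with a difference of 1.62 (SE 0.21, adjusted p = 3.0e-05). For Cd209a the complete tumors had 8.03, 9.09 and 9.07 in B;p38α and 8.69, 8.58, 9.60, 9.22 and 9.01 in B. They were all below the CD45+ arrays, and the difference was 1.51 (SE 0.30, adjusted p = 0.00133). Xcr1 was at 6.21, 6.42 and 6.20 in B;p38α and 5.40, 6.45, 6.94, 6.68 and 6.22 in B complete tumors, where the highest B tumor reached above the lowest CD45+ array, and differed by 1.43 (SE 0.30, adjusted p = 0.00181). The other genes did not pass: Siglech by 0.47 (adjusted p = 0.232), Fscn1 by 0.53 (adjusted p = 0.0598), and Ccr7, Cd207, Zbtb46 and Batf3 by 0.13 to 0.25. With array weights Fscn1 (adjusted p = 0.00392) and Ccr7 (adjusted p = 0.0437) passed.

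Set against complete tumors, CD45- populations were lower in Cd209a, Xcr1 and Siglech and higher in Fscn1. The 3 of 10 called lower stand beside 6.47% of all genes, and the 1 called higher beside 6.24%. Fscn1 in complete tumors was at 9.999, 9.48 and 8.93 in B;p38α and 9.93, 9.96, 9.70, 9.20 and 10.47 in B, and its CD45- levels exceeded these by 2.12-fold (difference 1.08, SE 0.20, 95% interval 0.66 to 1.50, adjusted p = 0.0026), with 1 B complete tumor reaching into the CD45- range. Averaged over the genotypes, Fscn1 had a mean level of 10.74 in CD45- populations, 10.19 in CD45+ populations and 9.66 in complete tumors, and only the difference between the first and the last passed. Siglech was at 6.81, 7.28 and 7.12 in B;p38α and 6.76, 7.02, 7.74, 7.32 and 7.04 in B complete tumors, above all CD45- arrays. The CD45- minus complete difference was -1.28 for Cd209a (adjusted p = 0.0113), -1.05 for Xcr1 (adjusted p = 0.0285) and -0.94 for Siglech (adjusted p = 0.0325). The Siglech call was lost in 7 of 20 fits that left out 1 array and the Xcr1 call in 4 of 20, both of them without B CD45- replicate 1 among others. Flt3 (-0.53, adjusted p = 0.117), Batf3 (-0.40, adjusted p = 0.101), Irf8, Zbtb46, Ccr7 and Cd207 did not pass. Of the leukocyte genes 7 of 12, and of the macrophage genes 9 of 11, were lower in CD45- populations than in complete tumors, and their part in the lower levels of Cd209a, Xcr1 and Siglech was not tested.

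**Figure D2:**
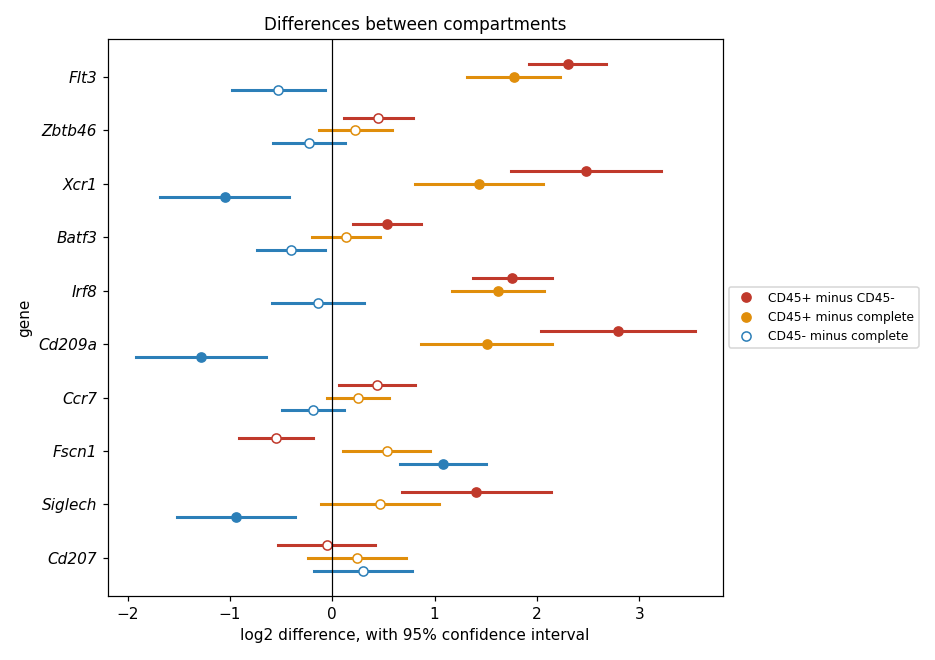
Difference of log2 levels (horizontal axis) for each gene (vertical axis) with its 95% confidence interval, for CD45+ minus CD45- (red), CD45+ minus complete tumors (orange) and CD45- minus complete tumors (blue). Filled points passed an adjusted p of 0.05 and open points did not. Flt3, Xcr1, Irf8 and Cd209a have filled points to the right of 0 in both CD45+ comparisons, and Fscn1 has its only filled point, at 1.08, in CD45- minus complete tumors.

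The order of the 6 group means showed where the levels broke. For Flt3, Irf8 and Cd209a both CD45+ groups came first, and the next group did not overlap with them: the step was 1.54 between B CD45+ populations and B;p38α complete tumors for Flt3, 1.26 between B;p38α CD45+ populations and B complete tumors for Irf8, and 1.29 between the same groups for Cd209a. Cd209a had a further step without overlap, 1.06, between B and B;p38α CD45- populations. For Ccr7 the step without overlap was 0.28, between B and B;p38α CD45+ populations. For Xcr1 the single step without overlap was the last one, 1.52, between B and B;p38α CD45- populations. For Siglech it was 0.75, between B;p38α complete tumors and B CD45- populations. Batf3 was highest in B complete tumors, at 6.85 ± 0.39 (SD, n = 5), followed by the CD45+ groups, and its step without overlap was 0.32, between B;p38α CD45+ populations and B;p38α complete tumors. For Fscn1 the order ran from B;p38α CD45- (11.06 ± 0.07), B;p38α CD45+ (10.52 ± 0.38), B CD45- (10.42 ± 0.27) and B CD45+ (9.87 ± 0.29, SD, n = 3 each) populations to the complete tumors, with steps without overlap of 0.54 after the first group and 0.56 after the third. Neighboring groups overlapped throughout for Zbtb46 and Cd207.

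The study compared B;p38α with B within each compartment, which for these 10 genes asks whether the genotype of the melanocytes was reflected in the dendritic cell signal. In CD45+ populations 0 of 10 genes passed in limma, as did 0% of all genes. At an unadjusted p under 0.05 there was 1 of the 10 genes, beside 10.8% of all genes. The gene was Fscn1, with a difference of 0.65 (SE 0.25, 95% interval 0.07 to 1.24, unadjusted p = 0.033, adjusted p = 0.45) and overlapping arrays. Xcr1 had the largest difference and overlapping arrays, at -0.83 (SE 0.53, 95% interval -2.07 to 0.40, adjusted p = 0.548). B;p38α replicates 1 and 2 were its lowest CD45+ arrays, and B;p38α replicate 3 lay above 2 of the 3 B arrays. The same replicate 3 was the highest CD45+ array for Irf8, Cd209a and Siglech. Ccr7 was the 1 gene whose genotypes did not overlap, lower in all 3 B;p38α arrays (difference -0.28, adjusted p = 0.534), beside 7.35% of all genes with lower levels and no overlap. The intervals of the other differences were -1.05 to 0.22 for Irf8 (-0.42), -0.17 to 0.77 for Flt3 (0.30), -0.91 to 0.61 for Cd209a (-0.15) and -1.27 to 0.91 for Siglech (-0.18). Batf3 (-0.03), Zbtb46 (-0.01) and Cd207 (0.13) lay closer to 0.

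With array weights 3 of the 10 genes passed in CD45+ populations, Fscn1 (0.95, adjusted p = 0.00853), Irf8 (-0.59, adjusted p = 0.0277) and Xcr1 (-0.95, adjusted p = 0.0412). That fit called 5303 of all 19504 genes, a share near that of the 10 genes, so these calls are not particular to them. The mean level of Y-linked genes also moved with genotype in CD45+ populations, at 2.75 to 3.23 in B;p38α and 4.30 to 8.67 in B. It was at 2.99 to 3.85 in B;p38α and 2.76 to 9.29 in B complete tumors. In CD45- populations it spread over 3.30 to 8.81 in B;p38α and 2.79 to 8.60 in B. With the Y-linked level as a covariate the Xcr1 difference in CD45+ populations was 0.13 (SE 0.72, adjusted p = 0.932). Since the Y-linked levels of the genotypes did not overlap there, this fit cannot tell genotype and Y-linked level apart.

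In CD45- populations 0 of 10 genes passed, beside 0.0103% of all genes (2 of 19504), and at an unadjusted p under 0.05 there were 2 of 10 genes (Xcr1 and Fscn1) beside 6.76% of all genes. Xcr1, Cd209a and Ccr7 were lower in every B;p38α array than in every B array and Fscn1 was higher in every one. These 3 of 10 lower genes stand beside 5.36% of all genes without overlap, and the 1 higher gene beside 10.6%. The separation was narrow for Ccr7 and Cd209a. For Ccr7 the nearest arrays of the genotypes were both at 7.139 after rounding, and for Cd209a they were at 8.067 and 8.081. Xcr1 had the largest difference, -1.52 (SE 0.31, 95% interval -2.26 to -0.78, unadjusted p = 0.00181, adjusted p = 0.675), and without B CD45- replicate 1 it was -1.75. Its arrays were at most 4.78 in B;p38α and at least 5.54 in B. The difference was -1.06 for Cd209a (SE 0.54, 95% interval -2.33 to 0.21), -0.53 for Ccr7 (SE 0.30, 95% interval -1.23 to 0.17) and 0.64 for Fscn1 (SE 0.22, 95% interval 0.12 to 1.15), each at an adjusted p of 0.675. For Ccr7 it was -0.24 without B CD45- replicate 1, whose level was the highest of the series. The leukocyte content moved the same way: the mean level of 12 general leukocyte genes was 6.03, 7.40 and 7.93 in B;p38α and 8.59, 8.52 and 8.27 in B, with a median difference of -1.37, 11 of 12 genes lower and 0 passing. The 11 macrophage genes were at 5.82, 7.45 and 8.63 in B;p38α and 9.22, 9.19 and 8.62 in B (median difference -1.64, 0 passing). With the leukocyte level as a covariate the Cd209a difference was 0.22 (adjusted p = 0.9997). Since the leukocyte levels of the genotypes did not overlap in CD45- populations, this fit cannot tell genotype and leukocyte level apart.

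In complete tumors 0 of 10 genes passed beside 0% of all genes, and 0 of 10 had an unadjusted p under 0.05, beside 6.61% of all genes. The arrays of the genotypes overlapped for all 10 genes, beside 4.46% of all genes without overlap. The largest differences were -0.39 for Batf3 (SE 0.23, 95% interval -0.90 to 0.12, adjusted p = 0.81) and -0.38 for Fscn1 (SE 0.31, 95% interval -1.06 to 0.29, adjusted p = 0.863). Xcr1, which had the largest difference in both sorted populations, differed by -0.06 (95% interval -0.74 to 0.62). Zbtb46 was at 5.22 in B replicate 5, against 6.05 to 6.19 in the other 4 B tumors. Differences of the other genes lay between -0.30 for Irf8 and 0.17 for Flt3. With 3 against 5 arrays these intervals leave room for differences of about 1 log2 unit in Irf8, Cd209a and Fscn1.

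**Figure D3:**
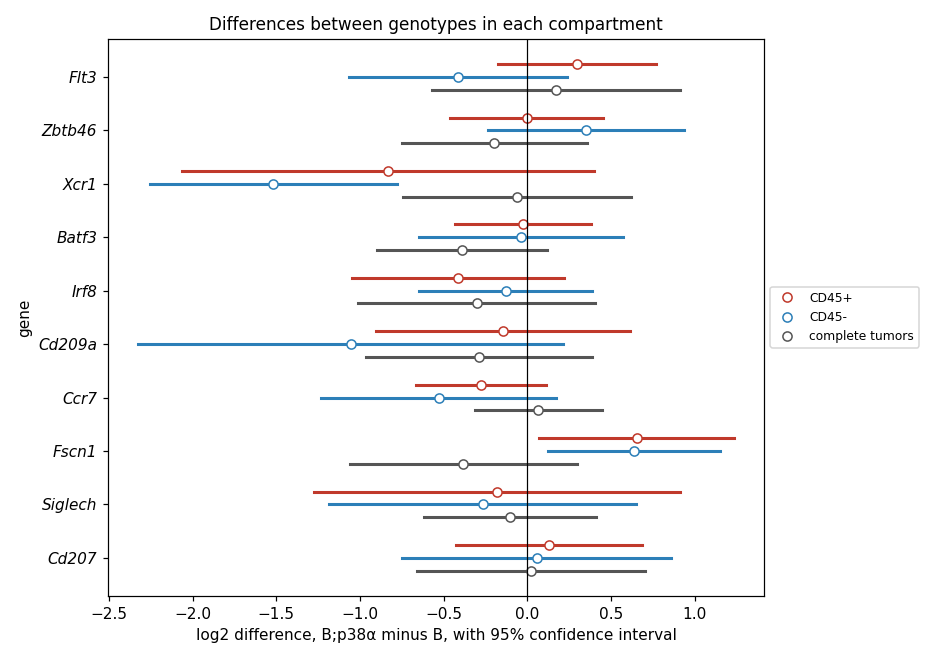
Difference of log2 levels, B;p38α minus B (horizontal axis), for each gene (vertical axis) with its 95% confidence interval, in CD45+ populations (red), CD45- populations (blue) and complete tumors (grey). All points are open because none passed an adjusted p of 0.05. Xcr1 in CD45- populations is farthest from 0, at -1.52, and the Fscn1 intervals lie above 0 in both sorted populations and include 0 in complete tumors.

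Whether a genotype difference differed between compartments was tested as an interaction. The genotype difference in CD45+ minus that in CD45- populations passed for 0 of 10 genes and 0% of all genes in limma, with 0 of 10 genes beside 1.95% of all genes at an unadjusted p under 0.05. Flt3 came closest, with 0.30 in CD45+ and -0.42 in CD45- populations (interaction 0.71, SE 0.34, 95% interval -0.03 to 1.46, adjusted p = 0.9999). The genotype difference in CD45+ populations minus that in complete tumors passed for 0 of 10 genes and 0% of all genes, with 1 of 10 genes beside 7.22% of all genes at an unadjusted p under 0.05. That gene was Fscn1, whose genotype difference was 0.65 in CD45+ populations and -0.38 in complete tumors (interaction 1.04, SE 0.40, 95% interval 0.19 to 1.88, unadjusted p = 0.0189, adjusted p = 0.682). With array weights this Fscn1 interaction was 1.39 and passed (adjusted p = 0.0333).

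Related genes likewise gave 0 calls between genotypes in any compartment. In CD45+ populations 11 of 12 genes of type 1 cells had a negative difference (median -0.41), the largest being that of Clec9a at -1.31 (adjusted p = 0.42). Genes of several other cell types were mostly negative on these arrays too, with 0 of them passing. Negative differences were found for 10 of 12 general leukocyte genes (median -0.20), 9 of 11 macrophage (-0.25), 10 of 10 T cell (-0.33), 8 of 8 NK cell (-0.29) and 8 of 8 endothelial genes (-0.70). All melanocyte genes but Sox10, and all keratinocyte genes but Krt1 and Lor, were negative too. The B cell, neutrophil and fibroblast genes were mixed in sign. The part of these cell types in the differences of the dendritic cell genes was not tested. Among genes of mature migratory cells, 12 of 14 were negative (median -0.19), with Ccl17 at -1.56 (adjusted p = 0.395) and Ccl22 at -1.18 (adjusted p = 0.392). Most plasmacytoid genes were negative as well, but those with the largest differences were positive. These were Atp1b1 at 1.18 (adjusted p = 0.511) and Bst2, which interferon induces in many cells, at 1.09 (adjusted p = 0.392). Ccr6, the receptor for Ccl20, differed by -1.45 (adjusted p = 0.335). In CD45- populations Clec9a differed by -1.50 and Mgl2 by -1.57 (both at an adjusted p of 0.675), beside the lower leukocyte level given above. In complete tumors 8 of 10 genes of type 2 and monocyte-derived cells were negative (median -0.36), with Cd209d at -1.55 (adjusted p = 0.764) and Clec10a at -0.97 (adjusted p = 0.716), and the T cell-recruiting chemokine gene Cxcl9 was at 1.17 (adjusted p = 0.716). There too 10 of 11 macrophage genes (median -0.66), 11 of 12 general leukocyte genes (-0.31) and 7 of 8 endothelial genes (-0.52) were negative with 0 passing, and their part was not tested. The 10 genes themselves were negative in 7 of 10 cases in each of the 3 compartments, with medians of -0.09 in CD45+, -0.20 in CD45- and -0.15 in complete tumors, beside 0.00, 0.05 and -0.01 over all genes.

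Over the 20 arrays the genes differed in how closely they followed the general leukocyte level, the mean of the 12 leukocyte genes on the same array. Pearson correlations, given as descriptions because the arrays share compartments, were 0.954 for Cd209a, 0.914 for Xcr1, 0.856 for Flt3, 0.829 for Irf8 and 0.803 for Siglech. They were 0.665 for Batf3, 0.648 for Ccr7 and 0.386 for Zbtb46. Cd207 (-0.039) and Fscn1 (-0.315) did not follow it. After each group mean was subtracted, the pairs that still varied together most were Cd209a with Siglech (0.738), Batf3 with Irf8 (0.711), and Flt3 with Xcr1 (0.575), and Fscn1 varied against Siglech (-0.565).

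**Figure D4:**
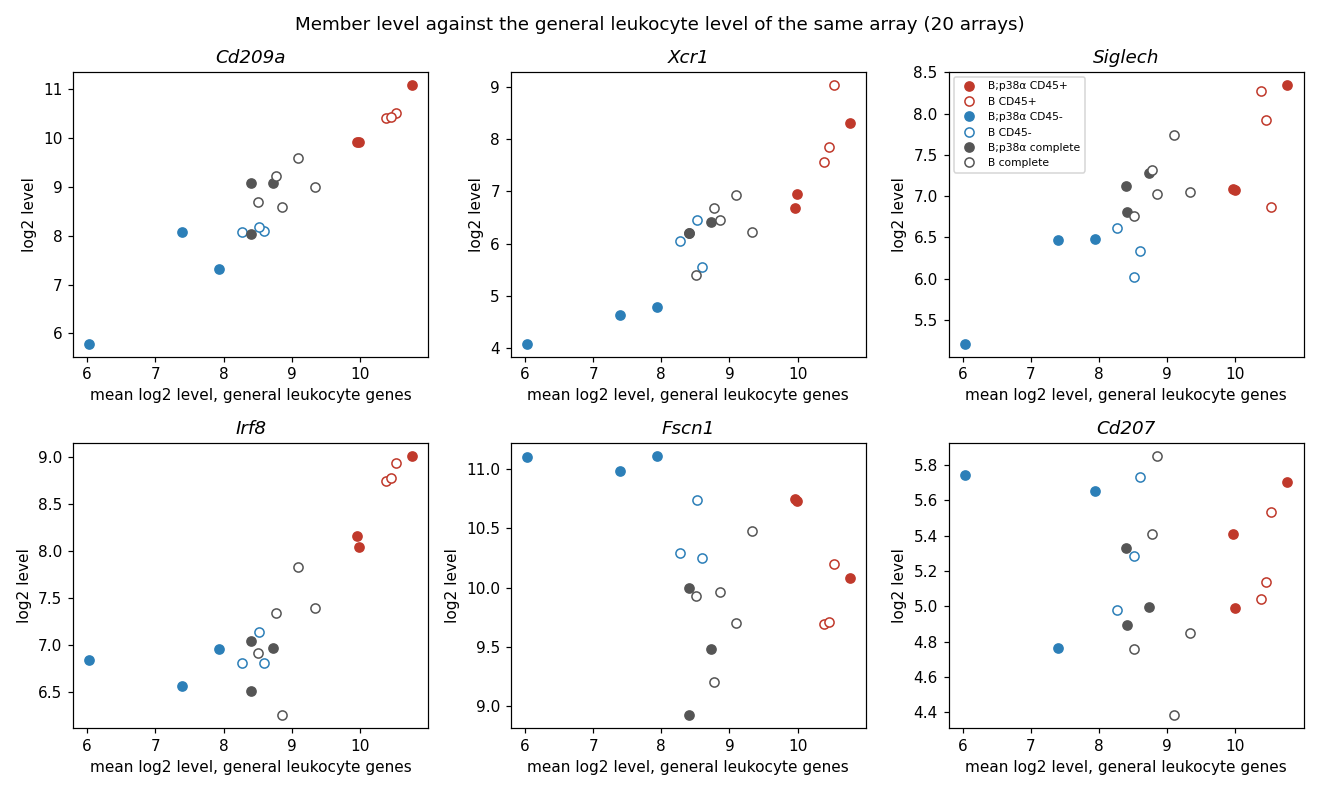
Log2 level (vertical axes) of Cd209a, Xcr1, Siglech, Irf8, Fscn1 and Cd207 against the mean log2 level of 12 general leukocyte genes on the same array (horizontal axes). Each point is 1 of 20 arrays, filled for B;p38α and open for B, in red for CD45+, blue for CD45- and grey for complete tumors. Cd209a and Xcr1 lie close to a line from the B;p38α CD45- array at a leukocyte level of 6.03 up to the CD45+ arrays, whereas Fscn1 and Cd207 show no such line.

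The genes most like each member over the 20 arrays differed accordingly. Cd209a was most like H2-M3 (0.971), Ms4a6c (0.967) and Igsf6 (0.965), Irf8 like Cyrib (0.965), Rbpj (0.949) and Rassf5 (0.943), Flt3 like Ssh2 (0.949), Gdap10 (0.949) and Pnpla7 (0.941), and Xcr1 like Pilrb1 (0.944), Tmem176b (0.940) and Hepacam2 (0.939). Siglech was most like Ncr1 (0.917), an NK cell receptor gene, Gm12250 (0.903) and the interferon-induced Oas2 (0.900). Ccr7 was most like Unc13d (0.866), Clec4b2 (0.850) and the lymphocyte cytokine receptor gene Il7r (0.829), and Batf3 like the immunoproteasome gene Psmb10 (0.850), Gpx1 (0.836) and Sh3bgrl3 (0.831). Fscn1 was most like Hdgf (0.963), Ergic1 (0.945) and Cd276 (0.941). The nearest genes of Zbtb46 were less alike, with 0.739 for Madd, 0.745 for Tsc22d3 and 0.769 for Fig4, as were those of Cd207, with 0.727 for Prss37, 0.692 for Tgm4 and 0.691 for Gast. With group means subtracted, Cd209a stayed close to the monocyte chemokine receptor gene Ccr2 (0.937) and to Ptprc (0.871), Siglech was close to Xcl1 (0.931) and Cd28 (0.931), genes of NK and T cells, and Fscn1 to Akt1 (0.939) and Ctbp1 (0.930). Ccr7 was then closest to Aadacl2 (0.945), Olfr1042 (0.938) and Vmn1r87 (0.937). Its level in B CD45- replicate 1, the array of narrow range, was 8.08, against 7.25 and 7.14 in the rest of that group. The part of that array in these correlations was not tested.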

How the data were processed

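Expression was measured on 20 arrays of mouse melanomas. The deposited table holds log2 levels; the authors made them with RMA (version not stated), per the submitters' processing notes. The sources used here do not say which arrays were normalized together or which genome build the platform used. The table had 21244 rows, with values from 1.31 to 14.15, 0 missing values and 0 columns of other samples. Platform annotation gave 19570 rows 1 symbol, 0 several and 1674 none. All 19570 matched RefSeq by Entrez number with 0 symbols changed. The row with the highest mean was kept per symbol, which left out 66 rows and gave 19504 genes. Arrays have no read depth, and precision is limited by how many there are.

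Groups came from the labels. Comparisons were made in limma 3.58.1 (lmFit, eBayes; R 4.3.3), and p-values were adjusted by Benjamini and Hochberg over all 19504 genes, with a threshold of 0.05: the genotypes within each compartment in 2-group fits, CD45+ against CD45- over the 4 sorted groups, and comparisons with complete tumors over all 6 groups. The limma script was tested on simulated data. All 10 members were named. Of 16 marker lists, with 159 of 173 genes measured, up to 3 genes past the threshold were named per list, or the 2 largest differences where none passed. For each member the 3 most correlated genes were named. Csf1, Xcl1, Flt3l and Epcam were named after their values were seen. Members and lists were chosen with earlier results of these data known. Alternatives were other sets of samples, the replicate number as a block, covariates, a filter on dim genes, quantile normalization, array weights, all rows and leaving out arrays. Averaging the 2 most alike arrays was added after seeing the data. Promoters came from RefSeq (GRCm38.p6), and plots from matplotlib 3.10.9 (Python 3.11.15).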

Additional observations from a re-analysis of the deposited data

Results flagged for a closer look

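Zbtb46 in B complete tumors was the 1 result marked among 10 genes checked for a sample far from the others, by Dixon's 95% critical value, in the only group of 4 to 10 arrays. Replicate 5 was at 5.22 and the other 4 arrays at 6.05 to 6.19. At that level chance marks about 1 in 20 such groups. Without that array the Zbtb46 difference between genotypes in complete tumors was -0.38 and did not pass in limma, against -0.20 with it.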

How the results depend on the processing

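Of 1960 values of the 10 genes under the alternatives, 1793 kept their direction and side of the threshold. A further 106 changed sign where the value was smaller than its standard error, 34 lost and 25 gained a call, and 2 reversed: Xcr1 between genotypes in CD45+ populations (0.13 with the Y-linked covariate) and Cd209a in CD45- populations (0.22 with the leukocyte covariate). Over the 4 sorted groups, the higher levels of Flt3, Xcr1, Irf8, Cd209a and Siglech in CD45+ than in CD45- populations passed under every alternative. Within B those of Xcr1 and Cd209a did not, and that of Siglech passed only with array weights. The cause of the changes below was not tested.

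With array weights, members called were 3 (0 without weights) between genotypes in CD45+ populations, 7 (4) for CD45+ against CD45- in B and 1 (0, Fscn1) for the interaction with complete tumors. Genes called with weights were 5303 (0) between genotypes in CD45+ and 4 (2) in CD45- populations, 4275 (2372) for CD45+ against CD45-, 2652 (908) within B, 1906 (933) within B;p38α, 7769 (5037) for CD45+ against complete tumors and 761 (0) for that interaction. Between genotypes in CD45+ populations, genes called were 2 with all 6 groups, 4 with the leukocyte covariate, 250 with the Y-linked covariate and 7 without dim genes. In CD45- populations they were 0, 0 and 1 with the first 3 of these, against 2.

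The labels do not say whether replicate numbers pair the samples. Same-numbered arrays, with group means subtracted, correlated at -0.218 to 0.219 between genotypes and at -0.568 to 0.363 between CD45+ and CD45- populations. Arrays with different numbers were not compared, so these values cannot decide it. With the replicate block, genes called were 27 (0) between genotypes in complete tumors, 534 (908) for CD45+ against CD45- in B and 1484 (2479) for CD45- against complete tumors. Under the block the calls of Batf3 for CD45+ against CD45- (adjusted p = 0.085), Xcr1 in B (adjusted p = 0.0721) and Xcr1 for CD45- against complete tumors (adjusted p = 0.0975) were lost, and Fscn1 passed for CD45+ against complete tumors (adjusted p = 0.0431).

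Leaving out 1 array gave 5 to 7 members and 1648 to 3145 genes for CD45+ against CD45-, 2 to 4 and 271 to 1077 within B, 4 to 4 and 606 to 1197 within B;p38α, 4 to 5 and 4169 to 5861 for CD45+ against complete tumors, and 2 to 5 and 1459 to 2990 for CD45- against complete tumors. Within B the Cd209a call was lost in 5 and the Xcr1 call in 4 of 12 such fits. Genotype comparisons gave 0 to 0 members, with 0 to 30 genes in CD45+, 0 to 4 in CD45- and 0 to 49 in complete tumors, 0 to 1 for the interaction between CD45+ and CD45- and 0 to 16 for that with complete tumors. Fscn1 for CD45+ against CD45- passed without dim genes (adjusted p = 0.0302), with repeated quantile normalization (0.0366) and with array weights (0.00839). With array weights Zbtb46 (0.0326) and Ccr7 (0.00541) passed for CD45+ against CD45-, Zbtb46 (0.0401), Fscn1 (0.0221) and Siglech (0.0197) within B, Ccr7 (0.0343) within B;p38α, and Ccr7 (0.0437) and Fscn1 (0.00392) for CD45+ against complete tumors, where Fscn1 also passed without dim genes (0.0415). Averaging B;p38α CD45+ replicates 1 and 2 ended the Batf3 call for CD45+ against CD45- (adjusted p = 0.0623).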
